A study of Mus musculus with 14 samples.

Results

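The subunits of the mitochondrial respiratory chain and of ATP synthase that are encoded in the nucleus were examined in lungs of mice with a mammary tumour and of mice without. Members were chosen by gene symbol alone (Ndufa, Ndufb, Ndufc, Ndufs and Ndufv followed by a digit, Sdha to Sdhd, Uqcr, Cox4 to Cox8 and Atp5). This gave 81 of the 18194 genes that had a probe set with 1 gene symbol. Complex I had 35 members, complex II 4, complex III 8, complex IV 17 and complex V 17. A filter on dim genes, which kept the upper 60% by mean level, passed 78 members. Cox7b2, Cox7c and Ndufb4 fell under it and have values here but no test. Ndufs6, Ndufa11 and Cox7b were not analysed here.

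RNA of whole lung was measured on Affymetrix arrays, 1 array per sample, in BALB/c mice. The 4T1 group (4 arrays) had metastatic 4T1 breast carcinoma cells in the mammary fat pad, the 67NR group (5 arrays) had non-metastatic 67NR cells there, and the normal group (5 arrays) had PBS and no cells. Lungs were perfused with PBS and collected 6 days after inoculation or once a tumour was near 50 mm3. Metastatic and non-metastatic growth were each represented by a single cell line, and the labels do not say that each array is a mouse of its own, so the p-values cover only how far these samples scatter, which may be technical.

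The respiratory chain moves electrons from NADH (complex I) and succinate (complex II) through complex III to complex IV, where oxygen is reduced, and the proton gradient built on the way drives ATP synthase (complex V). Most subunits are made in every cell that holds mitochondria. A few have paralogues restricted to certain tissues, among them the heart, skeletal muscle, brown fat and testis forms of several complex IV subunits and an oxygen-regulated form of subunit 4 found in lung.

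Array medians lay between 113.2 and 116.1 intensity units. Alveolar type 2 markers, which define lung epithelium, were present in every array, with summed intensities from 49714 to 60720 over 6 genes with a value. Neutrophil markers separated the 4T1 group: 7 of the 8 tested were higher by limma in each comparison of 4T1 with another group, and summed intensities were 22875 to 31512 in 4T1, 5733 to 9169 in 67NR and 4147 to 7632 in normal lungs. Clock output genes varied within the 67NR group, from a sum of 2645 to 15698. In whole tissue, fewer cells of a type and less RNA per cell cannot be told apart.

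No subunit passed the test in any comparison. With limma on log2(intensity + 16) and Benjamini-Hochberg adjustment over 10916 genes, 0 of 78 members passed an adjusted p of 0.05 in 4T1 against normal lungs, where 0.412% of all genes tested did. The count was also 0 in 67NR against normal lungs, against 0% of all genes, and in 4T1 against 67NR lungs, against 0.76%. The smallest adjusted p from limma among members was 0.783 (Uqcr10), 0.518 (Cox7a2l) and 0.167 (Ndufv3) in those comparisons. Without adjustment, 0, 2 and 2 members had a p under 0.05, or 0%, 2.56% and 2.56% of the members tested, beside 6.56%, 9.13% and 12.4% of all genes tested. No member had groups that did not overlap in any comparison, whereas 2.72%, 1.65% and 4.56% of all genes tested did. Both comparisons with normal lungs use the same normal arrays.

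Intervals bounded these differences gene by gene, for the scatter of these samples only. They are not adjusted for the number of genes or comparisons, and the limit of 25% used below was not set in advance. The median standard error of a member's difference was 0.048, 0.045 and 0.048 on the log2 scale in the comparisons as ordered above. The whole 95% interval lay within 0.32 of 0 on the log2 scale, the size of a 25% rise, for 72 of 78 members in 4T1 against normal (92.3%), 73 in 67NR against normal (93.6%) and 72 in 4T1 against 67NR (92.3%). The same held for 78.6%, 79.6% and 74.8% of all genes tested. For the median member, the bound farther from 0 was a difference of 9.82%, 9.39% and 10.5%. The members with wider intervals were Cox7a1, Cox8b, Cox8c, Ndufa4l2 and Ndufb1 in every comparison and Cox4i2 in both comparisons with 4T1.

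**Figure D1:**
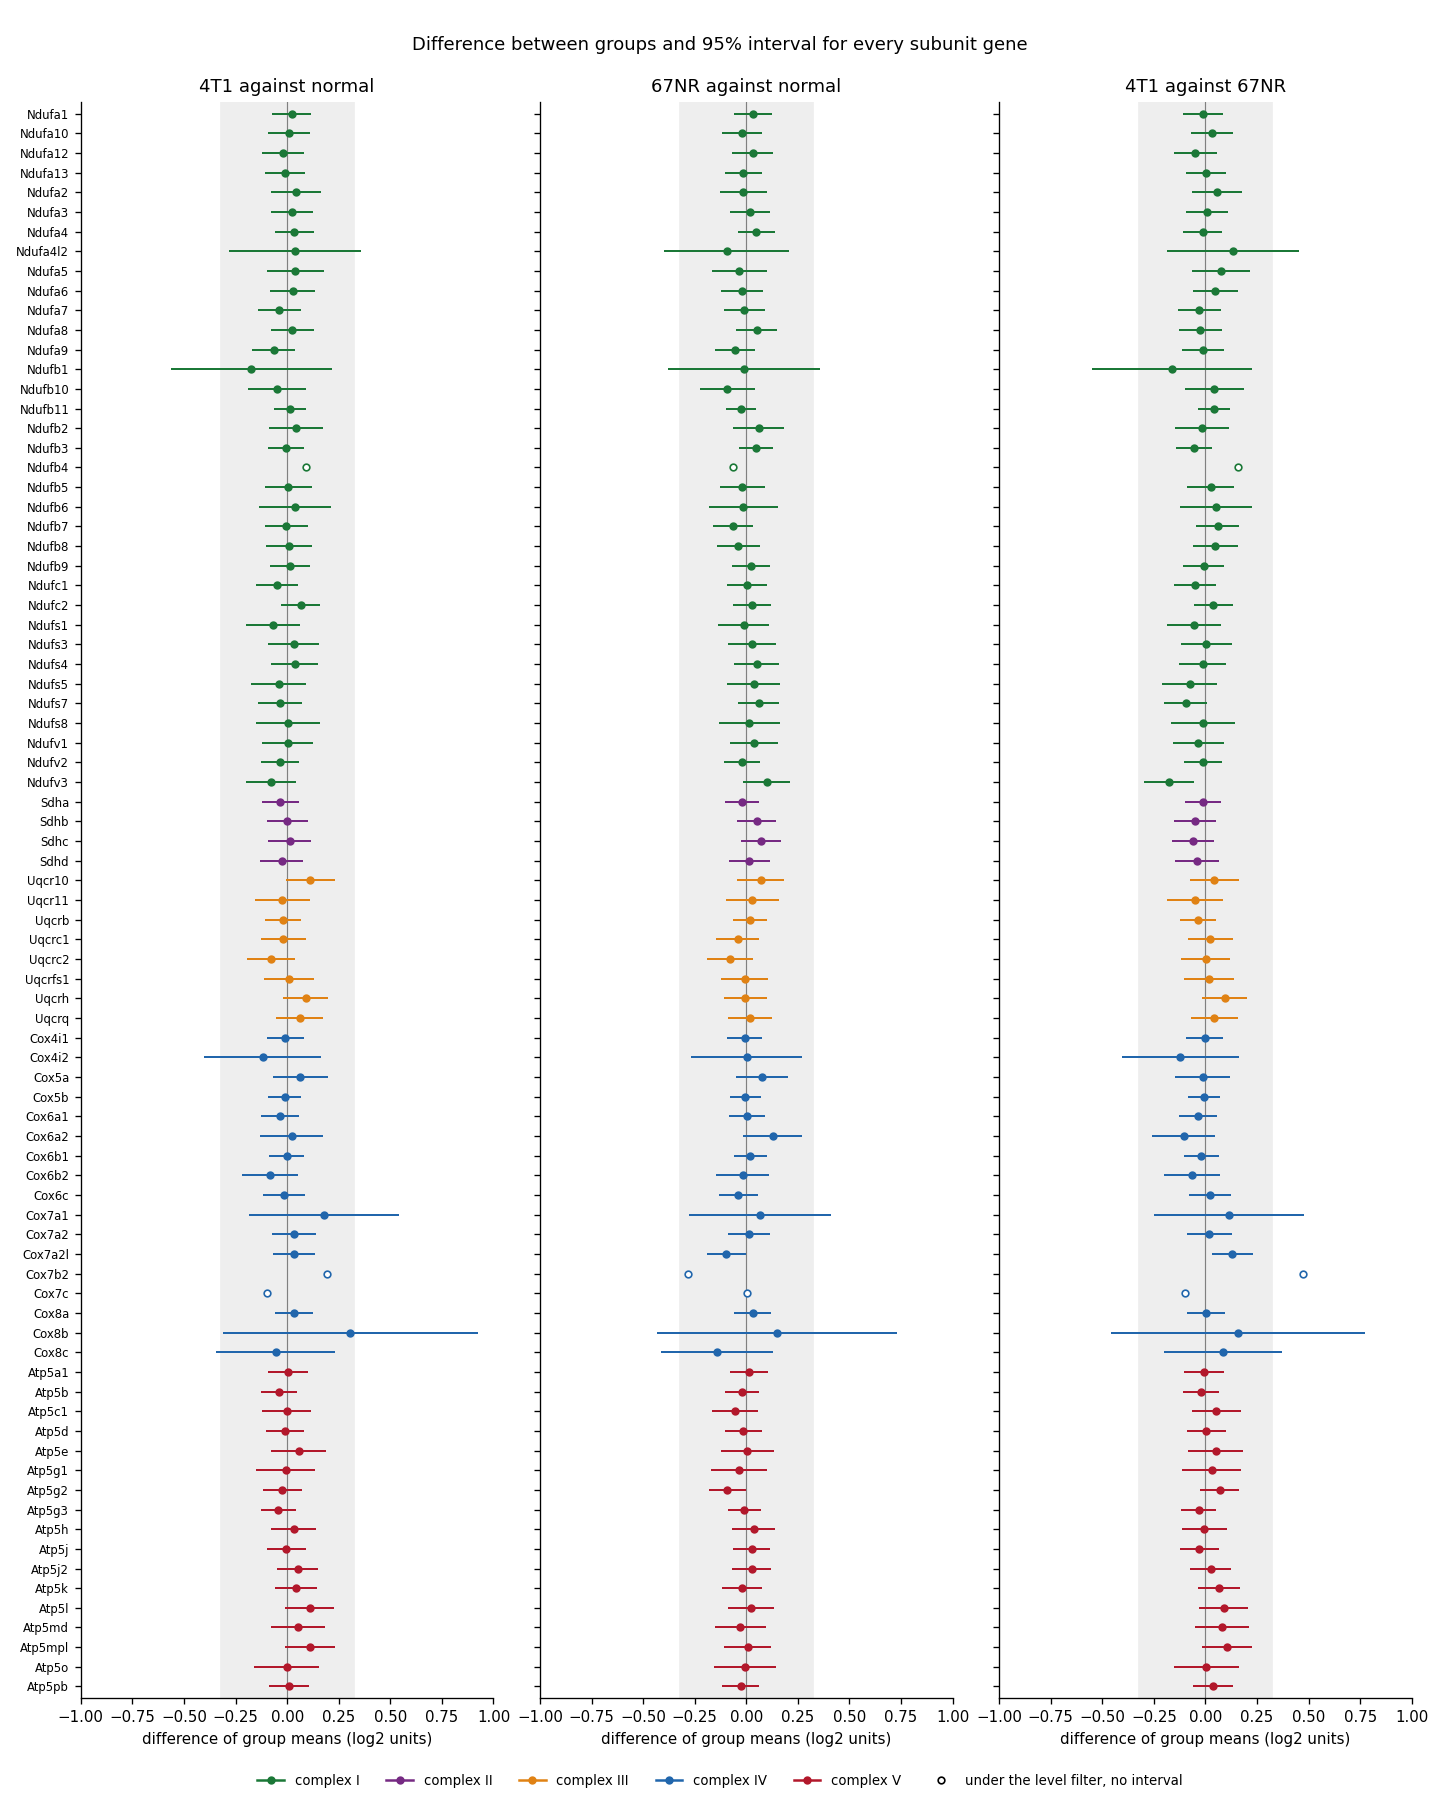
Difference between group means on the log2 scale (x axis) for every subunit gene (y axis), in 3 panels of 1 comparison each. Points are differences, lines are 95% intervals from limma, the grey band marks 0.32 in either direction and open circles are the 3 genes under the level filter. Of 78 tested members, 72, 73 and 72 have their whole interval inside the band, and the wide intervals belong mostly to tissue-restricted paralogues.

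The members' differences were centred near 0. The median difference over all 81 members was 0.0054 in 4T1 against normal, 0.0011 in 67NR against normal and 0.0018 in 4T1 against 67NR, beside -0.0023, -0.0011 and -0.0016 over all 18194 genes. Differences were positive for 44, 41 and 42 of the 81 members. The members' mean deviation from their own averages came to 0.0077 ± 0.044 over the 4T1 arrays (SD, n = 4). It came to -0.0039 ± 0.039 over the 67NR arrays and -0.0023 ± 0.035 over the normal arrays (SD, n = 5 each). The group means lay closer together than the arrays within a group.

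Single arrays differed more than the groups, and across complexes. In 4T1 replicate 1 and in normal replicate 4, 63 of 81 members were above their own mean over 14 arrays. In normal replicate 2 only 15 were, and in 67NR replicate 5 18. For complex I the count was 3 of 35 in 67NR replicate 5 and 28 of 35 in 67NR replicate 4. The deviations were small, from -0.067 (67NR replicate 5) to 0.054 (4T1 replicate 1) on the log2 scale. Each group held arrays on both sides of 0.

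**Figure D2:**
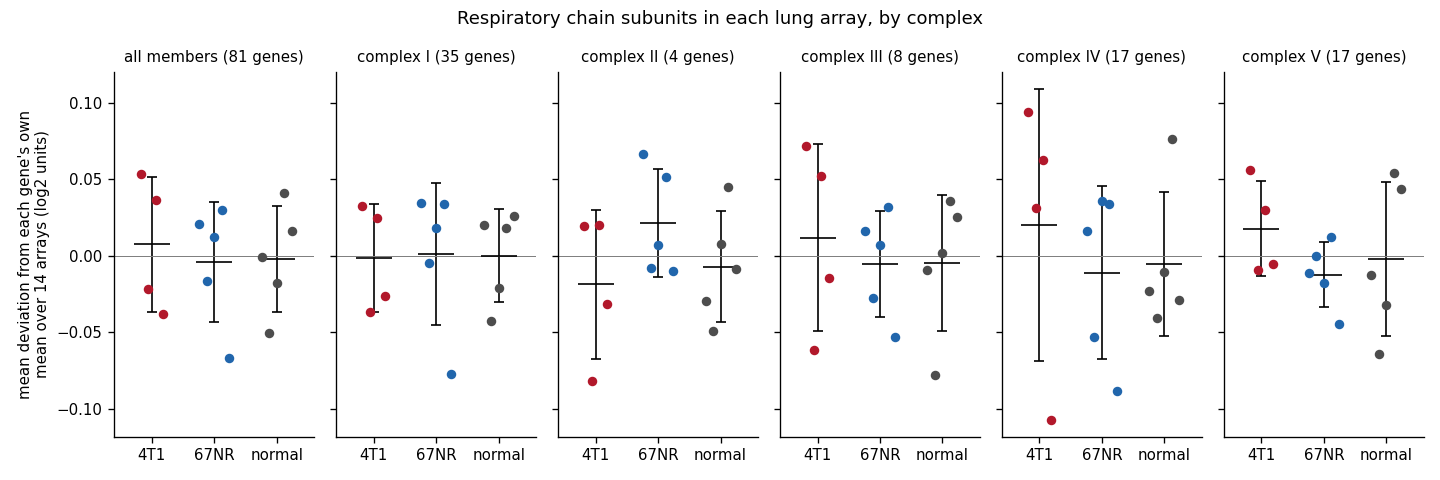
Mean deviation of the members from each gene's own mean over 14 arrays (y axis, log2 units) in each array, by group (x axis), for all members and for each complex. Points are arrays and bars are group mean and SD, and the groups overlap in every panel.

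Complex I oxidises NADH. Its catalytic core subunits Ndufv1 (which binds NADH and flavin), Ndufv2, Ndufs1, Ndufs3, Ndufs7 and Ndufs8 had a median difference of -0.015 in 4T1 against normal, 0.021 in 67NR against normal and -0.023 in 4T1 against 67NR. Over the 28 accessory subunits, counted by symbol and so with Ndufa4, the medians were 0.011, -0.011 and -0.0027. For the complex as a whole they were 0.0077, -0.0099 and -0.010, with 21, 17 and 16 of 35 members positive. The 35 were set by symbol and include Ndufa4, now known as a complex IV subunit, and its paralogue Ndufa4l2. Ndufb11, an accessory subunit of the membrane arm, had the smallest spread within groups of any member tested (SD 0.023), with levels from 12.22 to 12.31 over all 14 arrays.

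Ndufv3, an accessory subunit of the NADH-oxidising module, came closest to the threshold. Its levels, as log2(intensity + 16), were 11.11, 10.99, 11.20 and 11.14 in 4T1, 11.42, 11.25, 11.29, 11.29 and 11.19 in 67NR and 11.23, 11.15, 11.12, 11.24 and 11.22 in normal lungs. The lowest 67NR array lay just under the highest 4T1 array, so these groups overlapped, and the normal arrays overlapped both. The 4T1 minus 67NR difference was -0.18 (SE 0.054, 95% interval -0.29 to -0.060), with an adjusted p of 0.167 from limma, and so did not pass. Against normal lungs the differences were -0.078 for 4T1 and 0.098 for 67NR. The gene has 1 probe set, and leaving out each array in turn moved the 4T1 minus 67NR difference between -0.21 and -0.14. Over all 29 alternatives it lay between -0.21 and -0.13. Ndufv3 was not the closest member in every one. Without 67NR replicates 1 and 3, which had low clock output, Cox7a2l was closest in that comparison (limma adjusted p 0.297). The same held without 4T1 replicate 2 (0.294). The part of clock state in the Ndufv3 values was not tested.

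Ndufb1, an accessory subunit of the membrane arm with a level near the filter, had the largest SD over 14 arrays in complex I. Its levels were 7.58, 7.24, 7.27 and 7.06 in 4T1, 7.46, 7.65, 7.63, 7.41 and 7.09 in 67NR and 7.59, 7.59, 6.75, 7.67 and 7.70 in normal lungs. The third normal array stood below every other array. The 4T1 minus normal difference was -0.17 (SE 0.18) and was -0.35 without that array, and neither value passed. Ndufb4, another accessory subunit, was under the filter at a mean of 5.95 ± 0.14 (SD, n = 4) in 4T1 and 5.86 ± 0.10 (SD, n = 5) in normal lungs. Probe sets that name Ndufb4 together with its near copies were not used under the rule of 1 symbol.

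Complex II oxidises succinate and ties the chain to the citrate cycle. Sdha, the flavoprotein, had levels of 11.40, 11.29, 11.37 and 11.34 in 4T1, 11.38, 11.35, 11.37, 11.33 and 11.35 in 67NR and 11.33, 11.42, 11.42, 11.40 and 11.33 in normal lungs. Sdhb, the iron-sulphur subunit, had 11.48, 11.38, 11.45 and 11.40 in 4T1, 11.56, 11.46, 11.46, 11.47 and 11.43 in 67NR and 11.43, 11.33, 11.42, 11.51 and 11.44 in normal lungs. Groups overlapped for both genes. The differences of 4T1 from 67NR were -0.011 (SE 0.039) for Sdha and -0.049 (SE 0.045) for Sdhb.

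The membrane anchors of complex II had differences of -0.060 (Sdhc, SE 0.046) and -0.041 (Sdhd, SE 0.047) in the same comparison. All 4 values were negative, with a median of -0.045, and none passed. That sign depended on the probe set. When all probe sets of a gene were averaged, the median of complex II in 4T1 against 67NR was 0.021. Against normal lungs the medians of complex II were -0.013 for 4T1 and 0.032 for 67NR.

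Complex III passes electrons from ubiquinol to cytochrome c. The Rieske iron-sulphur protein Uqcrfs1 differed by 0.0089 (4T1 against normal), -0.0082 (67NR against normal) and 0.017 (4T1 against 67NR). The core protein Uqcrc2 was the lowest of the complex against normal lungs in both tumour groups, by -0.078 (SE 0.053) in 4T1 and -0.079 (SE 0.050) in 67NR, and did not pass. Uqcr10, a small subunit, had the highest value of the complex in both. Its levels were 10.72, 10.46, 10.61 and 10.52 in 4T1, 10.58, 10.43, 10.62, 10.52 and 10.53 in 67NR and 10.47, 10.45, 10.46, 10.49 and 10.45 in normal lungs. The normal arrays were close together, and the second 4T1 array lay among them. The 4T1 minus normal difference was 0.11 (SE 0.054, limma adjusted p 0.783), and the 67NR minus normal difference was 0.069. Another Uqcr10 probe set past the level filter gave 0.066 and -0.17 for these, so the sign against normal lungs in 67NR depended on the probe set. A further one under the filter gave 0.019 and 0.18. The hinge protein Uqcrh had the largest value in 4T1 against 67NR, 0.094 (SE 0.049), and Uqcr11 the lowest, -0.052 (SE 0.061). Medians over the 8 members were -0.0047, 0.0060 and 0.021.

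Complex IV is cytochrome c oxidase, whose catalytic subunits are encoded in the mitochondrion and whose nuclear subunits regulate and stabilise it. Its 10 broadly expressed members had median differences of -0.0054, 0.0021 and -0.0046 in 4T1 against normal, 67NR against normal and 4T1 against 67NR. Cox5b, which binds zinc, lay between 12.36 and 12.43 in all 14 arrays. Cox7c was under the filter, at a mean level of 6.04 ± 0.52 (SD, n = 4) in 4T1 and 6.13 ± 0.098 (SD, n = 5) in normal lungs.

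Cox7a2l, of the paralogue family of Cox7a1 and Cox7a2, had an unadjusted p under 0.05 by limma in both comparisons with 67NR. Its levels were 11.89, 11.76, 11.84 and 11.76 in 4T1, 11.68, 11.64, 11.70, 11.60 and 11.78 in 67NR and 11.79, 11.75, 11.80, 11.76 and 11.78 in normal lungs. The fifth 67NR array reached the other groups, and the remaining 67NR arrays lay below all arrays of both. The difference was 0.13 (SE 0.044, limma adjusted p 0.222) for 4T1 minus 67NR and -0.097 (SE 0.042, limma adjusted p 0.518) for 67NR minus normal, and neither passed. Its other probe sets gave 0.10 and 0.12 for 4T1 minus 67NR and -0.099 and -0.043 for 67NR minus normal.

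Complex V makes ATP. The catalytic subunit Atp5b of the F1 head differed by -0.041 (SE 0.038) in 4T1 against normal, -0.019 (SE 0.036) in 67NR against normal and -0.022 (SE 0.038) in 4T1 against 67NR. Its partner Atp5a1 differed by 0.0054, 0.014 and -0.0082. The membrane ring of subunit c is encoded by Atp5g1, Atp5g2 and Atp5g3, which give the same mature protein. Atp5g2 had levels of 11.73, 11.65, 11.71 and 11.59 in 4T1, 11.57, 11.59, 11.65, 11.61 and 11.57 in 67NR and 11.72, 11.61, 11.69, 11.69 and 11.74 in normal lungs. The 67NR arrays were the lowest group but reached the lowest normal array. The 67NR minus normal difference was -0.092 (SE 0.040, limma adjusted p 0.52), and did not pass.

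The other c-ring genes differed from normal lungs by -0.0057 and -0.036 (Atp5g1, in 4T1 and 67NR) and by -0.042 and -0.0089 (Atp5g3). Among the stalk and membrane subunits, Atp5l and Atp5mpl had the largest positive values in 4T1 against normal, 0.11 (SE 0.053) and 0.11 (SE 0.054). Atp5h, of the peripheral stalk, had the highest value of the complex in 67NR against normal, 0.037 (SE 0.046). In 4T1 against 67NR Atp5l and Atp5mpl were 0.088 and 0.10, and 12 of the 17 complex V members were positive, with a median of 0.030. Against normal lungs the medians were 0.0054 (4T1) and -0.0089 (67NR).

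Several tissue-restricted paralogues were among the most variable members. Within groups, the SD over arrays had a median of 0.22 over the 7 restricted paralogues tested and of 0.058 over the 71 other members tested. Over all genes tested it was 0.11, and over the 3508 genes with a mean level of at least 10 it was 0.082. The paralogues were also dimmer, with a median level of 9.17 against 11.35 for the other members. The broadly expressed Ndufb1 (0.30) varied more than the paralogues Cox7a1 (0.28), Ndufa4l2 (0.24), Cox8c (0.22) and Cox4i2 (0.21), while the paralogues Cox6a2 (0.10) and Cox6b2 (0.089) lay below Ndufb6 (0.12). None of these SDs was tested against another.

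**Figure D3:**
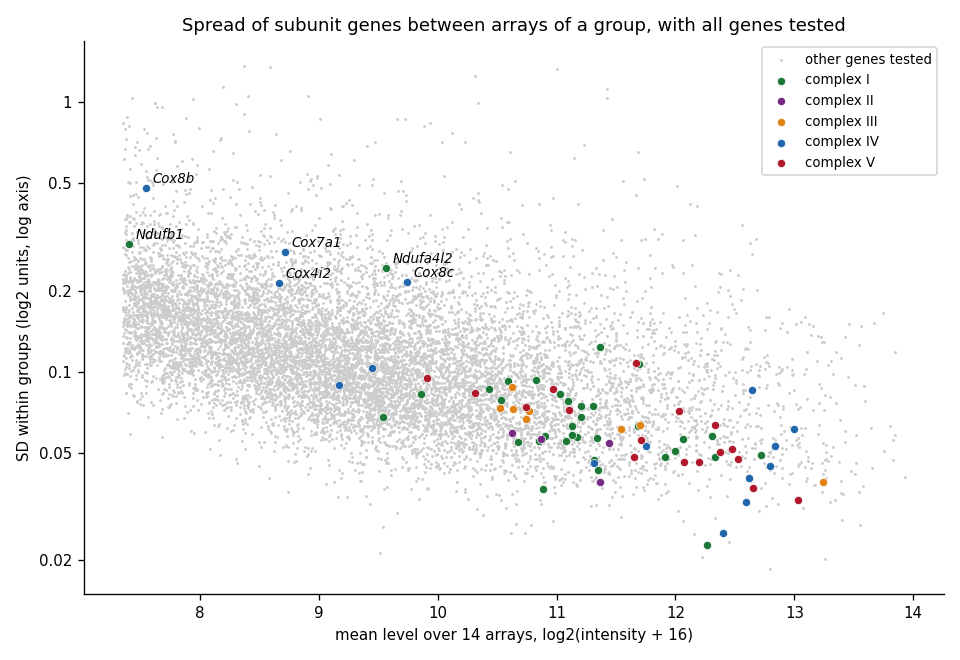
SD within groups (y axis, log2 units, log axis) against mean level over 14 arrays (x axis) for the 78 members tested, coloured by complex, and for the other genes tested in grey. Most members lie low in the cloud at their level, and Cox8b, Cox7a1, Cox4i2, Cox8c, Ndufa4l2 and Ndufb1 lie higher.

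Promoter sequence is shown for 2 paralogue pairs that differed in this spread, as 250 bases up to the start site, on the strand of the gene and 5′ to 3′, with each CG in capitals. The sequences are RefSeq's on build GRCm38.p6. Cox8a (chr19:7217617-7217866, minus strand) and Cox7a2 (chr9:79759854-79760103, minus strand) are the broadly expressed genes. Cox8b (chr7:140900447-140900696, minus strand) and Cox7a1 (chr7:30183921-30184170, plus strand) are the heart and muscle forms.
Cox8a: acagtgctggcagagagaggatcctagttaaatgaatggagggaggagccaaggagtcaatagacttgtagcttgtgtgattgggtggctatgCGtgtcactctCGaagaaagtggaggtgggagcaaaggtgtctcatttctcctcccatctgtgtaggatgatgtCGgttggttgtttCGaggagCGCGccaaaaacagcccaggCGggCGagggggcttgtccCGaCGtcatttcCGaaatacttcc
Cox8b: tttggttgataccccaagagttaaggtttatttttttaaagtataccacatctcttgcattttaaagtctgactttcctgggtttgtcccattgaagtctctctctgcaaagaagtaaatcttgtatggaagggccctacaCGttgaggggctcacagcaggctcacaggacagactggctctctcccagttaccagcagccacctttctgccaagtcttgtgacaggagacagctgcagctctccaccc
Cox7a2: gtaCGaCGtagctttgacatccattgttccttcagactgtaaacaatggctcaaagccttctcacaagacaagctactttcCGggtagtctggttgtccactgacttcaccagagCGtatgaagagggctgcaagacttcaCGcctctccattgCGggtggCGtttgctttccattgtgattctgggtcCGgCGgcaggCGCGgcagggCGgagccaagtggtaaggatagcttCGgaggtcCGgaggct
Cox7a1: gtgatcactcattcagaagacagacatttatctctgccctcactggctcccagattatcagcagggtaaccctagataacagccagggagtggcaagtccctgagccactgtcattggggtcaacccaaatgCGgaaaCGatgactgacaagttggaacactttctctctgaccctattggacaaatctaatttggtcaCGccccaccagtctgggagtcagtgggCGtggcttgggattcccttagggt

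The window of Cox8a held 11 CG and that of Cox8b 1, and those of Cox7a2 and Cox7a1 held 14 and 4. Over windows of 300 bases (250 before to 50 after the start), the 71 promoters found for 66 members had a median of 19 CG, and all 32851 promoters in the table a median of 7. The letters TGCGCA, from the element bound by the nuclear respiratory factor NRF1 and the same on both strands, were in 18 member promoters (25.4%) and in 7.76% of all promoters. CCGGAAG on either strand, the core of sites for ETS factors such as GABP, was in 17 (23.9%) and in 8.86%. In all, 31 member promoters (43.7%) held at least 1 of these motifs, beside 15.3% of all promoters, and by complex the 2 motifs were in 10 and 4 of 33 promoters of complex I, 2 and 2 of 3 of complex II, 1 and 2 of 5 of complex III, 2 and 3 of 12 of complex IV, and 3 and 6 of 18 of complex V. The 4 restricted paralogues with a promoter in the table (Cox6b2, Cox7a1, Cox7b2 and Cox8b) held neither, with 2 to 10 CG each. The broadly expressed Cox7a2 also held neither. Cox8a held CCGGAAG in its window of 300 bases, but no printed window of 250 bases held a whole motif. A set of 4 promoters is too small for its share to be compared with that of all promoters. Both motifs contain CG, of which member promoters held more, and the shares were not matched for CG. A gene with several promoters was counted once for each. Whether the shares differ beyond the CG content was not tested. A match of letters is a description and was not tested against binding.

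Cox8b, the subunit 8 form of heart, muscle and brown fat, had the largest spread of any member. Its levels were 7.40, 7.76, 8.44 and 7.24 in 4T1, 8.27, 7.34, 7.58, 7.71 and 6.85 in 67NR and 7.20, 6.88, 7.50, 7.89 and 7.55 in normal lungs. The third 4T1 array and the first 67NR array stood highest, and the groups overlapped throughout. The differences were 0.31 (SE 0.29, 95% interval -0.30 to 0.92) in 4T1 against normal, 0.15 (SE 0.27) in 67NR against normal and 0.16 (SE 0.29) in 4T1 against 67NR, and none passed.

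Of the 5 brown fat markers, Ucp1 and Cidea were highest in the same arrays and Elovl3, Ppargc1a and Dio2 were not. Ucp1, the uncoupling protein that defines brown fat, had an intensity of 245 in the third 4T1 array and 62.3 in the first 67NR array, and of 4.66 to 6.40 in the other 12. Cidea, a lipid droplet protein of brown fat, was 187 and 102 there and 28.8 to 88.9 in the others. In those arrays Elovl3 was 58.6 and 46.7, beside 40.9 to 75.2 in the others. Ppargc1a, a coactivator of mitochondrial genes, was 107 (the lowest of 14 arrays) and 153, and Dio2, which activates thyroid hormone, was 204 and 164 (the lowest of 14 arrays). Summed over the list's 5 genes, all with a value, brown fat markers were 423 to 802 in 4T1, 453 to 529 in 67NR and 465 to 535 in normal lungs. The sum was highest in the third 4T1 array, and that of the first 67NR array (529) lay below that of normal replicate 3 (535). General fat markers, of which 4 of 7 had a value and Adipoq (adiponectin) is one, were 1658 to 5244, 1034 to 2658 and 1213 to 2367, highest in the third 4T1 array. Without those 2 arrays, an alternative chosen after seeing the data, the differences of Cox8b were 0.064, -0.031 and 0.095 in the order above. Each array was the highest of its group in Cox8b, so both differences from normal lungs had to fall without them. The 4T1 minus 67NR difference was -0.086 without 4T1 replicate 3 alone and 0.34 without 67NR replicate 1 alone. Cox8b had intensities of 99.0 to 221 in the arrays with the low Ucp1. The part of brown fat in the Cox8b values was not tested.

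Cox7a1, the heart and muscle form of subunit 7a, had levels of 8.91, 8.69, 8.67 and 9.01 in 4T1, 8.91, 8.42, 8.94, 8.95 and 8.33 in 67NR and 8.31, 8.30, 8.94, 8.86 and 8.81 in normal lungs. The lowest 4 arrays, normal replicates 1 and 2 and 67NR replicates 2 and 5, lay between 8.30 and 8.42, and the other 10 between 8.67 and 9.01. The difference was 0.18 (SE 0.17) in 4T1 against normal, 0.065 (SE 0.16) in 67NR against normal and 0.11 (SE 0.17) in 4T1 against 67NR, and none passed. Without 67NR replicate 5 and normal replicate 2, an alternative chosen after seeing the data, they were 0.093, 0.075 and 0.018. Each array was the lowest of its group in Cox7a1, so both differences of 4T1 from the other groups had to fall. The 67NR minus normal difference was -0.021 without normal replicate 2 alone and 0.16 without 67NR replicate 5 alone.

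The same 4 arrays had the lowest summed intensity of cardiac muscle markers. Over 17 genes, all with a value, the sums were 13489 to 15928 in the 4 arrays and 17342 to 25146 in the other 10. By group the sums were 17342 to 21345 in 4T1, 13489 to 25146 in 67NR and 14539 to 20599 in normal lungs. Ckmt2, the mitochondrial creatine kinase of heart and muscle, had intensities of 264 to 407 in the 4 arrays and 427 to 820 in the others, and Mb, myoglobin, 91.0 to 210.4 and 289 to 634. These genes were picked from the list after their values were seen. Of the 17 genes, 9 had all 4 arrays below the other 10, and 8, among them Myh6, the main myosin heavy chain of the mouse heart, overlapped (1837 to 2303 in the 4 arrays and 1891 to 2625 in the others). The median of the 4 arrays was the lower for 15 genes and not for Myl2 and Myh7. The 4 arrays were set by their Cox7a1 values, and the share of all genes with these arrays below the other 10 was not counted. How unusual 9 of 17 is therefore cannot be said. The part of cardiac muscle in the Cox7a1 values was not tested.

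**Figure D4:**
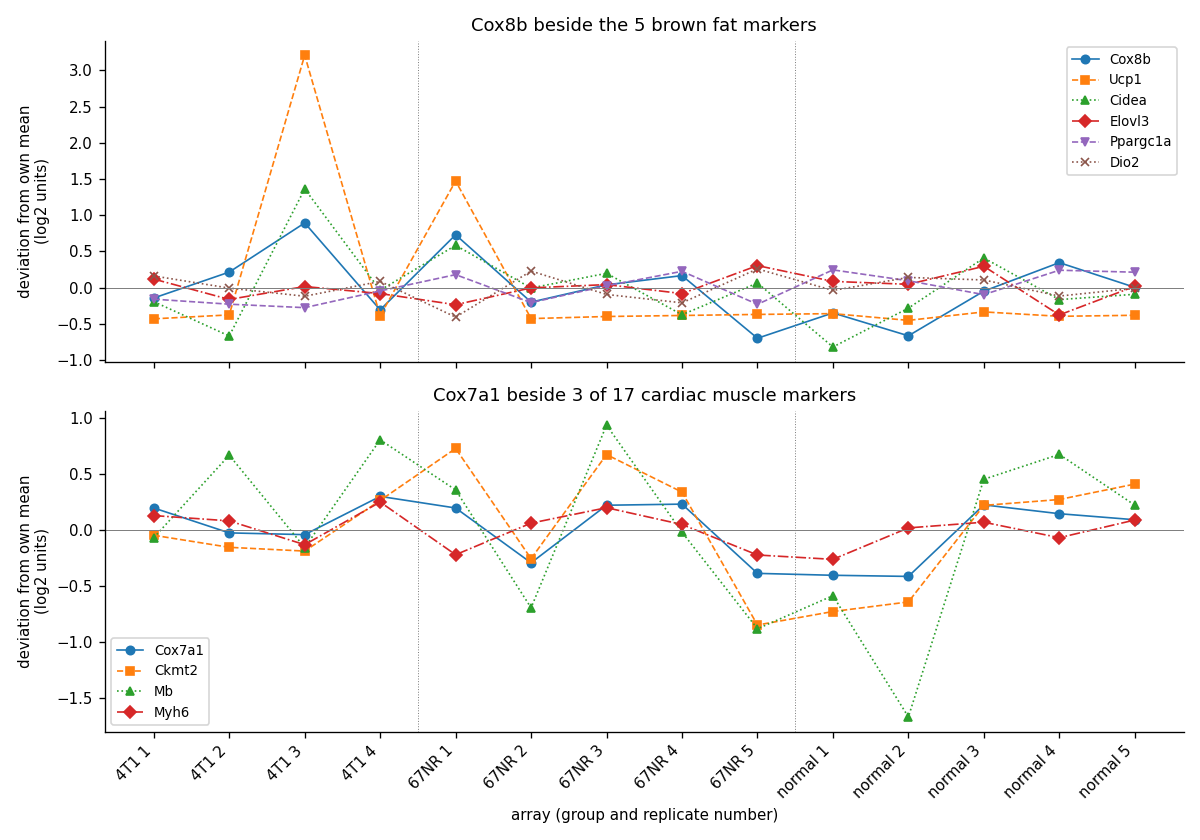
Deviation from each gene's own mean over 14 arrays (y axis, log2 units) by array (x axis) for Cox8b with the 5 brown fat markers (upper panel) and for Cox7a1 with 3 of the 17 cardiac markers, Ckmt2, Mb and Myh6 (lower panel), with dotted lines between the groups. Cox8b and Ucp1 are both highest in the third 4T1 and the first 67NR array, Elovl3, Ppargc1a and Dio2 are not, Cox7a1, Ckmt2 and Mb are lowest in the same 4 arrays, and Myh6 overlaps.

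Cox6a2, the heart and muscle form of subunit 6a, had levels of 9.50, 9.48, 9.44 and 9.26 in 4T1, 9.46, 9.43, 9.72, 9.56 and 9.46 in 67NR and 9.46, 9.49, 9.34, 9.39 and 9.31 in normal lungs. The groups overlapped, and the third 67NR array was the highest and the fourth 4T1 array the lowest. Those arrays had the highest and the next highest cardiac muscle sums (25146 and 21345). Whether Cox6a2 follows that sum over the arrays was not tested. The 67NR minus normal difference was 0.13 (SE 0.065, limma adjusted p 0.588) and did not pass. Its broadly expressed counterpart Cox6a1 differed by 0.0021 (SE 0.039).

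Cox4i2, the form of subunit 4 known from lung, had levels of 8.77, 8.57, 8.43 and 8.54 in 4T1, 8.69, 8.65, 8.76, 8.97 and 8.41 in 67NR and 8.71, 9.11, 8.53, 8.72 and 8.41 in normal lungs. The second normal array was the highest, normal replicate 5 and 67NR replicate 5 were the lowest, and the groups overlapped. Its differences were -0.12 (SE 0.13) in 4T1 against normal, 0.0026 (SE 0.12) in 67NR against normal and -0.12 (SE 0.13) in 4T1 against 67NR. The partner Cox4i1 differed by -0.0093, -0.0067 and -0.0026, with standard errors of 0.037 to 0.039.

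Ndufa4l2, a paralogue of Ndufa4 known to be induced in low oxygen, had levels of 9.70, 9.61, 9.39 and 9.81 in 4T1, 9.40, 9.80, 9.34, 9.21 and 9.71 in 67NR and 9.93, 9.72, 9.64, 9.22 and 9.42 in normal lungs. Both ends of the range lay in the tumour-free and 67NR groups, and all groups overlapped. The differences were 0.039 (SE 0.15), -0.095 (SE 0.14) and 0.13 (SE 0.15). Pericyte markers, from cells in which this gene is known to be expressed, summed to 4997 to 5809 in 4T1, 4836 to 5553 in 67NR and 4815 to 5693 in normal lungs over 6 genes with a value. Ndufa4, now known as a complex IV subunit, lay within 11.25 to 11.42 in all arrays.

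**Figure D5:**
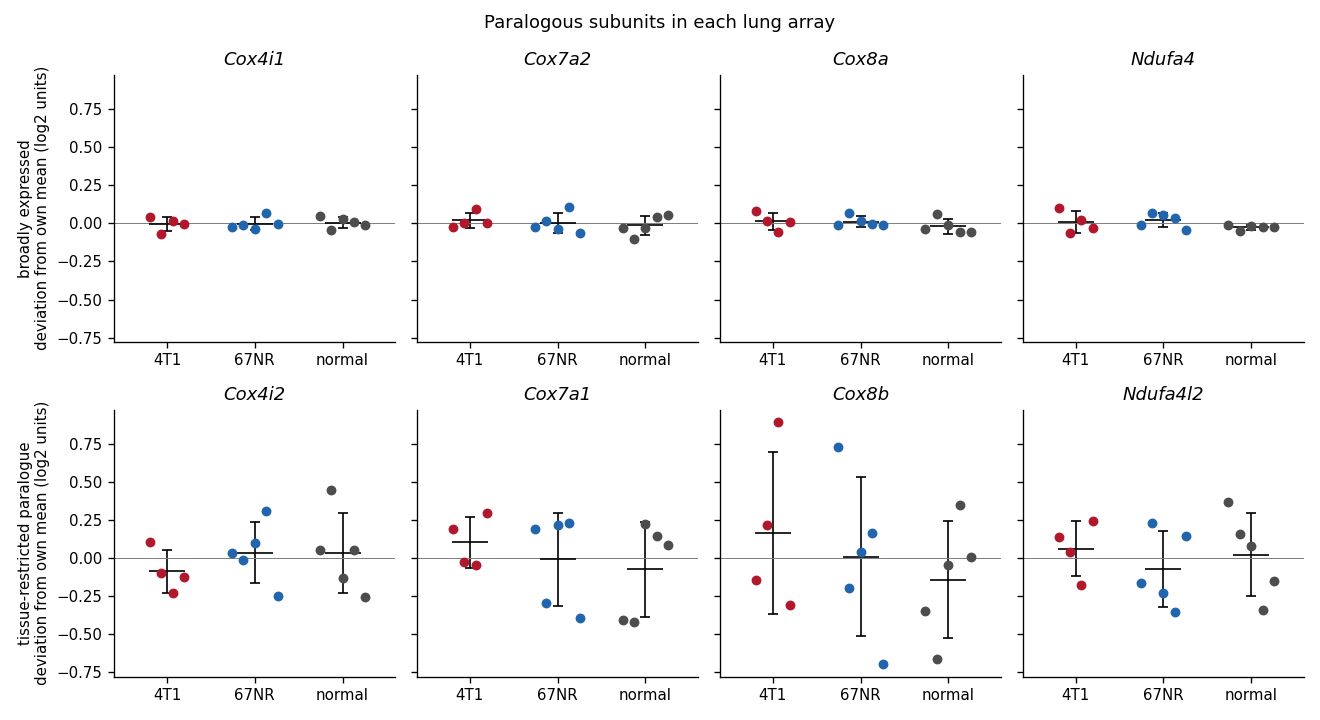
Deviation from each gene's own mean over 14 arrays (y axis, log2 units) by group (x axis) for 4 broadly expressed subunits (upper row) and their tissue-restricted paralogues (lower row). Points are arrays and bars are group mean and SD, all panels share a scale, and the lower row shows the wider spread in every pair.

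Of the testis forms, Cox6b2 and Cox8c were tested and neither passed. Cox7b2 was at intensities of 3.03 to 27.8 and under the filter, and its mean levels of 4.76 ± 0.57 over 4T1 (SD, n = 4) and of 4.28 ± 0.021 and 4.57 ± 0.35 over 67NR and normal arrays (SD, n = 5 each) were not set against a background level here. Cox6b2 differed by -0.084 (SE 0.061), -0.018 (SE 0.058) and -0.066 (SE 0.061), and Cox8c by -0.056 (SE 0.13), -0.14 (SE 0.12) and 0.086 (SE 0.13). The broadly expressed partners Cox6b1 and Cox8a differed most by -0.020 (4T1 against 67NR) and 0.032 (4T1 against normal).

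Of the 81 members, 48 had several probe sets, with 83 beside the one used. These had the same sign as the one used in 46 cases in 4T1 against normal, 48 in 67NR against normal and 43 in 4T1 against 67NR. Of the 83, 66 passed the level filter and were tested by limma over all 20975 probe sets that did. By adjusted p 0 of the 66 passed in each comparison, beside 0.3%, 0% and 0.453% of all probe sets tested. By unadjusted p under 0.05 the counts were 1, 1 and 2, beside 6.44%, 8.52% and 11.3%. The smallest adjusted p values from limma were 0.720 (Cox6c), 0.565 (Cox8c) and 0.335 (Ndufs4).

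No gene around the chain passed the same test. In each comparison limma passed 0 of 12 electron and nucleotide carriers tested, 38 assembly factors, 14 regulators of mitochondrial biogenesis and 17 citrate cycle genes. Of all genes tested, 0.412%, 0% and 0.76% passed in 4T1 against normal, 67NR against normal and 4T1 against 67NR. Unadjusted p-values under 0.05 were found for 0, 0 and 1 carriers, 1, 4 and 4 assembly factors, 0, 0 and 0 regulators, 0, 2 and 0 citrate cycle genes and 1, 0 and 0 of the mitochondrially encoded in 4T1 against normal, 67NR against normal and 4T1 against 67NR. That held for 6.56%, 9.13% and 12.4% of all genes tested. The lists had smallest adjusted p values of 0.326 (carriers), 0.183 (assembly factors), 0.545 (regulators) and 0.517 (citrate cycle) over the comparisons by limma. Cytochrome c (Cycs), which carries electrons from complex III to complex IV, had the largest positive carrier value in 67NR against normal, 0.12 (SE 0.064, limma adjusted p 0.602). Tfam, the packaging factor of mitochondrial DNA, differed by -0.029, -0.0093 and -0.019, and citrate synthase (Cs) by 0.027, -0.0027 and 0.030. ND5, a complex I subunit encoded in the mitochondrion and the gene of that list with a value here, differed by -0.093 (SE 0.039), -0.018 (SE 0.036) and -0.075 (SE 0.039), with limma adjusted p values of 0.677, 0.913 and 0.455. The medians of the carriers were 0.015, -0.030 and 0.030, and those of the citrate cycle -0.0023, -0.0027 and 0.011.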

How the data were processed

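The values analysed are the authors' deposited intensity values, 1 per probe set and array, on a linear scale for 14 arrays. For the summary of probes, background correction and normalisation, the method was not given in the sources used here. Intensities were converted to log2(intensity + 16) with no further normalisation, so differences of dim genes are understated. The platform annotation gave gene symbols, and the 34958 probe sets with exactly 1 were used (932 had several and 9211 none). For each gene the probe set with the highest mean was kept, and genes in the upper 60% of level (a mean log2 value above 7.35) were tested. Group means were fitted jointly over the arrays and 10916 genes with limma 3.58.1 in R 4.3.3 (default eBayes, 11 residual degrees of freedom), with two-sided p-values and Benjamini-Hochberg adjustment over all genes tested. The code was checked on simulated data. Intervals are 95% moderated-t intervals.

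The members and gene lists were chosen with earlier results of these data known. Named were the highest and lowest member of each complex per comparison, the paralogue families, all complex II subunits, the 5 members with the largest SD and any member past the threshold. Others (Ndufs and Ndufv core subunits, Uqcrfs1, Atp5a1, Atp5b, Atp5l, Cox5b, Ndufb11 and the marker genes) were named after their values were seen. RefSeq gene names matched all 81 members, and promoters (build GRCm38.p6) matched 66; the motifs TGCGCA and CCGGAAG were searched on both strands. Alternatives changed the normalisation, offset, filter, probe sets, variance model, arrays, block and membership. The number of arrays limits the precision.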

Additional observations from a re-analysis of the deposited data

Results flagged for a closer look

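Of 114 sets of values (named members and complex means, each in a group of 4 or 5 arrays), 3 had 1 array far from the others by Dixon's criterion, and chance flags about 1 in 20. The mean deviation of complex IV in normal replicate 4 was 0.077 on the log2 scale, and the nearest normal array was at -0.011. Cox6b2, the testis form of subunit 6b, had a level of 8.93 in 4T1 replicate 4, and the other 4T1 arrays lay between 9.16 and 9.19. Ndufb1, a complex I accessory subunit, had a level of 6.75 in normal replicate 3, and the other normal arrays lay between 7.59 and 7.70.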

How the results depend on the processing

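Under 29 alternatives in each of the 3 comparisons, 0 members passed an adjusted p of 0.05, and the smallest adjusted p was 0.0856 (Ndufv3 in 4T1 against 67NR, with limma's array weights). The median over all members stayed within 0.022 of 0, the farthest value being with arrays centred on their medians. One median by complex moved: complex II in 4T1 against 67NR was -0.045, and 0.021 when a gene's probe sets were averaged. Of 2784 values of named genes under alternatives, 146 had the opposite sign to the value reported and 10 moved by more than the spread between replicates, none of them past the threshold. With the replicate block, 0 members passed in each comparison and the medians over all members were -0.0027, 0.0011 and -0.0052. Same-numbered arrays did not deviate together: 3 of 13 such pairs correlated above 0.1 (range -0.34 to 0.22), and 1 of 14 arrays correlated best with its own number. Low correlations cannot show that samples were not paired, and the labels used here state no pairing. Counts over all genes moved more. In 4T1 against 67NR 83 genes passed, 184 with array weights, 50 with only those groups in the fit, and 41, 46, 55 and 170 without 4T1 replicate 1, 4T1 replicate 4, 67NR replicate 2 and 67NR replicate 5. In 4T1 against normal 45 passed, 29 with only those groups and 26 among genes in the upper 40% of level. In 67NR against normal 0 passed, 1 with no filter and 11 without 67NR replicates 1 and 3, which had low clock output. Alternatives without 4T1 replicate 3 and 67NR replicate 1, and without 67NR replicate 5 and normal replicate 2, were chosen after seeing the data. Low signal limits Cox7b2, Cox7c, Ndufb4 and Ndufb1.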
